A study of Mus musculus with 12 samples.

Results

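The stomach marker genes described here are Tff2, Tff3, Ctse and Anxa10, 4 of the 12393 genes measured. They were chosen by name, with earlier results of these data known. Every probe set annotated to them was taken, 6 of 22690 on the array. Where a gene had more than 1 probe set, the one with the highest mean log2 intensity over the 12 arrays was the main one. The comparison that goes with the choice is Matrigel against aggregate culture in each line, so the values of that comparison are given below as a description and without a test.

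Trefoil factors are small secreted proteins that lie in the mucus of the gut and help its lining to heal: TFF2 is typical of mucous neck and gland cells of the stomach, and TFF3 of goblet cells of the intestine, so that Tff3 is no marker of the stomach alone. Ctse encodes cathepsin E, an aspartic protease inside cells of the stomach lining and of the immune system. Anxa10 encodes annexin A10, of a family of calcium-dependent membrane-binding proteins, and its RNA is known from stomach epithelium. Liver, bile duct, pancreas and stomach all arise from the foregut.

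The cells were bipotential liver precursors of the mouse embryo (BMEL), kept as permanent lines and able to differentiate towards hepatocytes or bile duct cells. The lines 14B3 and 9A1 were isolated independently from livers of CBA/J x C57Bl/6J embryos at 14 days post coitum and carry no stated genetic change. Each was grown in Matrigel, a basement membrane gel, for 10 days, as aggregates for 5 days, and in basal culture with no time given, with 2 arrays for each line and culture. Per the labels Matrigel_14B3 replicate 1 was grown for 5 days, unlike the other 3 Matrigel arrays, and whether that label is right could not be checked. Matrigel and time in culture therefore cannot be told apart. Each line is a single isolate, so a line difference describes these isolates, and arrays were called biological duplicates with no more on how cultures were kept apart.

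Values are log2 of signal intensity, with a median intensity per array of 268 to 281. The precision is limited by the number of arrays. Each SE comes from the fit of all groups together, with a variance per gene that both lines share and that is drawn towards that of other genes. It is therefore equal in both lines and does not show the spread of the arrays compared. As a loose guide to background, 33 probe sets of 26 genes of retina, sperm, lens, neurons, pituitary, thyroid, muscle and lymphocytes lay between 4.08 and 9.24 over all arrays. Probe sets bind with different strength and some of these genes may be expressed, so a level within this range may be background or signal, and folds from it may be too small. The liver marker Hnf4a, a transcription factor of hepatocytes and gut epithelium, was high in every culture. It averaged 12.26, 12.67 and 11.73 in 14B3 cells in Matrigel, aggregate and basal culture and 12.13, 12.52 and 11.57 in 9A1 cells. Other hepatocyte genes differed in basal culture. Alb (7.84 in 14B3, 8.31 in 9A1) and Ttr (9.15 and 8.88) averaged within the background range there. Apob (10.28 and 10.17) lay above it in both lines, and Afp in 14B3 (10.49) but not in 9A1. In Matrigel and aggregates Alb group means were 12.41 to 12.55. In bulk RNA, more cells expressing a gene and more RNA per cell cannot be told apart.

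Tff2 RNA stayed low in every culture. Its single probe set read 8.12 and 8.19 in 14B3 cells in Matrigel, against 8.23 and 8.70 in 14B3 aggregates, and 8.20 and 8.72 in 9A1 cells in Matrigel, against 8.22 and 8.18 in 9A1 aggregates. Basal arrays read 7.91 and 8.16 in 14B3 and 7.81 and 7.88 in 9A1. All 12 values lie within the background range, and Matrigel and aggregate arrays overlapped in both lines. The difference, Matrigel minus aggregate, was -0.31 ± 0.19 in 14B3 and 0.26 ± 0.19 in 9A1 on the log2 scale. Each SE is from the fit, for 2 against 2 arrays, and the lines differed in sign. Leaving out single arrays gave -0.55 to -0.08 in 14B3 and 0.0029 to 0.52 in 9A1.

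Tff3 RNA was high in differentiated 9A1 cells and near its basal level in 14B3 cells. In 14B3 it read 9.12 and 9.27 in Matrigel, 8.86 and 9.13 in aggregates and 8.70 and 8.62 in basal culture. In 9A1 it read 10.98 and 11.79 in Matrigel, 10.53 and 9.63 in aggregates and 8.43 and 8.66 in basal culture. The 14B3 arrays lie within or at the edge of the background range, whereas the 9A1 arrays of Matrigel and aggregate culture lie above it. Matrigel and aggregate arrays overlapped in 14B3, where they differed by 0.20 ± 0.29 and Matrigel was higher within both same-numbered pairs. In 9A1 they were apart, as for 23.7% of genes, and differed by 1.30 ± 0.29 (SEs from the fit, 2 against 2 arrays). The 9A1 value ran from 0.85 without aggregate_9A1 replicate 2 to 1.75 without replicate 1. The order of group means ran from Matrigel 9A1 (11.38) through aggregate 9A1 (10.08), Matrigel 14B3 (9.20), aggregate 14B3 (8.99) and basal 14B3 (8.66) to basal 9A1 (8.54). Of these neighbours, Matrigel and aggregate 14B3 overlapped, as did the 2 basal groups.

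**Figure D1:**
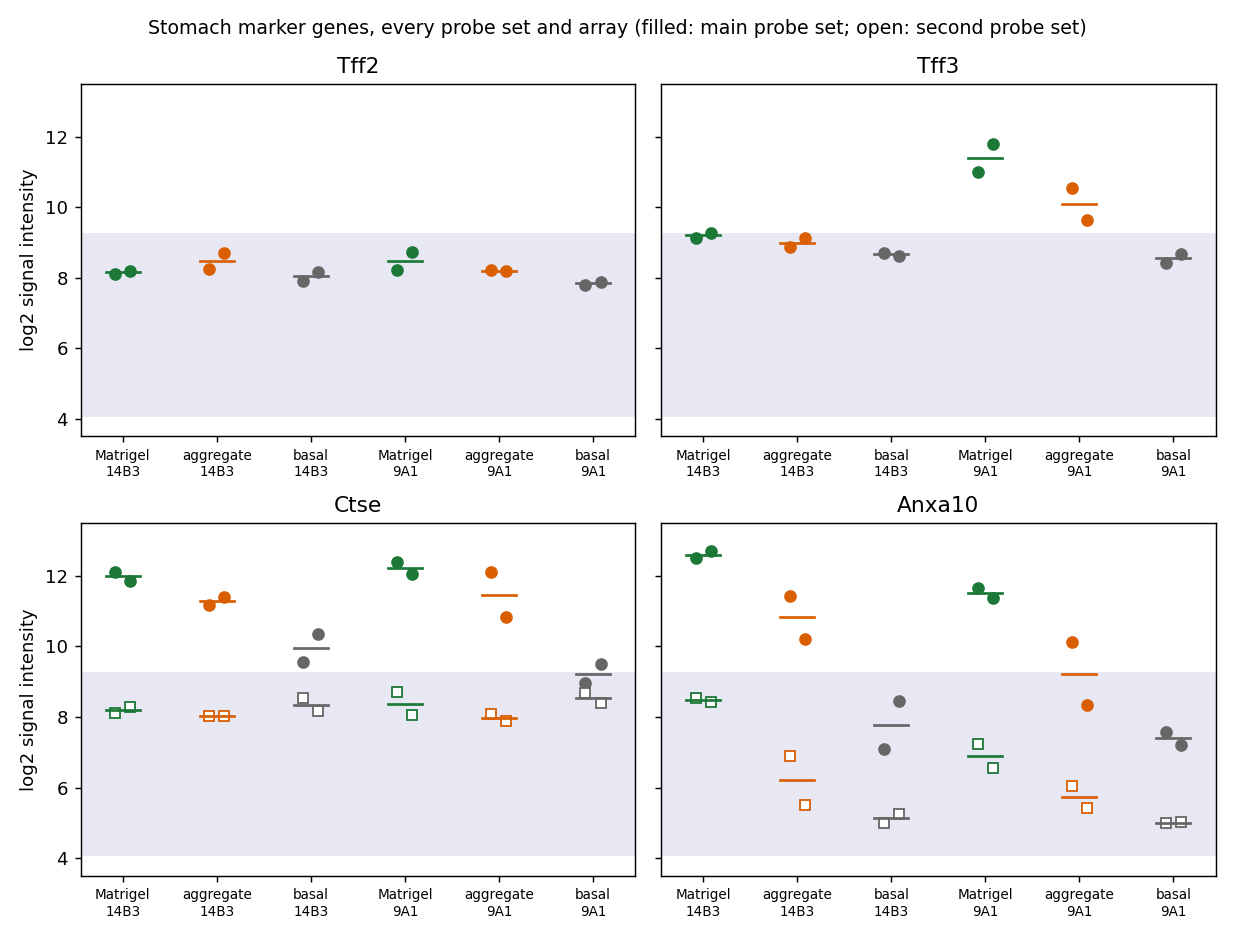
Log2 signal intensity (y axis) of each member on all 12 arrays, grouped by culture and line (x axis); points are arrays, horizontal lines group means, filled circles the main probe set and open squares the second one, and the shaded band the range of the 33 background probe sets. Tff2 stays within the band, Tff3 rises above it mainly in 9A1, and the main probe sets of Ctse and Anxa10 lie above it in all Matrigel arrays of both lines.

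Ctse had higher RNA in both differentiation cultures than in basal culture in both lines. The main probe set read 12.12 and 11.85 in 14B3 cells in Matrigel, against 11.18 and 11.41 in 14B3 aggregates and 9.55 and 10.35 in 14B3 basal culture. In 9A1 it read 12.40 and 12.05 in Matrigel, against 12.11 and 10.83 in aggregates and 8.97 and 9.49 in basal culture. Matrigel arrays were above aggregate arrays in 14B3, as for 21% of all genes, and overlapped with them in 9A1, although Matrigel was higher within each same-numbered pair of both lines. Matrigel minus aggregate was 0.69 ± 0.37 in 14B3 and 0.76 ± 0.37 in 9A1 (SE from the fit, 2 against 2 arrays each). That SE was the same in both lines, but the 9A1 aggregate arrays (12.11 and 10.83) lay further apart than the 14B3 ones. The 9A1 value rests on which aggregate array is used: it was 1.40 without aggregate_9A1 replicate 1 and 0.11 without replicate 2. A second Ctse probe set, of the kind that can also bind other transcripts, stayed between 7.88 and 8.71 on all arrays. Its group means were not higher in Matrigel (8.21 in 14B3, 8.38 in 9A1) or aggregates (8.04 and 7.98) than in basal culture (8.35 and 8.54), so the change of Ctse rests on 1 of its 2 probe sets.

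Anxa10 showed the widest range of the 4 genes and was highest in Matrigel in both lines. The main probe set read 12.50 and 12.72 in 14B3 cells in Matrigel, against 11.44 and 10.22 in 14B3 aggregates and 7.09 and 8.45 in 14B3 basal culture. In 9A1 it read 11.66 and 11.37 in Matrigel, against 10.13 and 8.33 in aggregates and 7.59 and 7.22 in basal culture. Within each line every Matrigel array was above every aggregate array, as for 15.3% of all genes, although the higher 14B3 aggregate array exceeded 1 of the 9A1 Matrigel arrays, so that the 4 Matrigel arrays did not all lie above the 4 aggregate arrays, which 11.8% of genes showed. Matrigel minus aggregate was 1.78 ± 0.55 in 14B3 and 2.28 ± 0.55 in 9A1 (SE from the fit, 2 against 2 arrays each). The 14B3 value was 2.38 without aggregate_14B3 replicate 1 and 1.17 without replicate 2, and the 9A1 value 3.18 without aggregate_9A1 replicate 1 and 1.39 without replicate 2. The Matrigel_14B3 array labelled 5 days (12.50) lay close to the one labelled 10 days (12.72) and above both 14B3 aggregates. The second Anxa10 probe set gave the same order at lower levels: 8.55 and 8.44 in 14B3 cells in Matrigel against 6.90 and 5.52 in 14B3 aggregates, and 7.22 and 6.55 in 9A1 cells in Matrigel against 6.04 and 5.41 in 9A1 aggregates. Basal arrays of this probe set read 5.01 and 5.26 in 14B3 and 5.00 and 5.02 in 9A1.

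Anxa10 had the largest differences of the members between Matrigel and either other culture, in both lines. Promoter windows of Tff2, Tff3 and Ctse were not available, so of the members only the sequence around the start of Anxa10 is shown. It covers 250 bases before and 50 bases after the start in RefSeq (GRCm38.p6, chr8:62123144-62123443, minus strand), written 5′ to 3′ in the gene's direction. Capitals mark the core that AP-1 factors bind (TGAGTCA) and the letters TATAAA of the box that places the start of transcription, which do not overlap each other here.
Anxa10: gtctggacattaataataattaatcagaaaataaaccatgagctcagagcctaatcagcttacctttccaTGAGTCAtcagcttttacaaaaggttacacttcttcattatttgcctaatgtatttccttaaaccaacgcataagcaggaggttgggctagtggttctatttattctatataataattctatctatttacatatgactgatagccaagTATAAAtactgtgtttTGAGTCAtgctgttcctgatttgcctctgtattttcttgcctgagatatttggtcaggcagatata
The AP-1 core lies at positions -180 and -16 from the start, and TATAAA at -32. Motifs were picked after reading the sequences and searched on both strands. The AP-1 core was present in 5.2% of 32851 promoter windows of the same length and more than once in 0.222%, and the TATAAA letters in 13.6%. Such matches describe letters and not sites in use.

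In the descriptive comparisons with basal culture, which share arrays with each other and with Matrigel against aggregate, Anxa10 had the largest values of the members in Matrigel in both lines and in 14B3 aggregates, and Ctse in 9A1 aggregates. In 14B3 it was 4.84 ± 0.55 higher in Matrigel and 3.06 ± 0.55 higher in aggregates, and in 9A1 4.11 ± 0.55 and 1.83 ± 0.55 (SE of log2 differences). Ctse was 2.03 ± 0.37 higher in Matrigel and 1.34 ± 0.37 higher in aggregates in 14B3, and 2.99 ± 0.37 and 2.24 ± 0.37 in 9A1. Tff3 was 0.54 ± 0.29 and 0.33 ± 0.29 higher in 14B3, and 2.84 ± 0.29 and 1.54 ± 0.29 in 9A1.

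**Figure D2:**
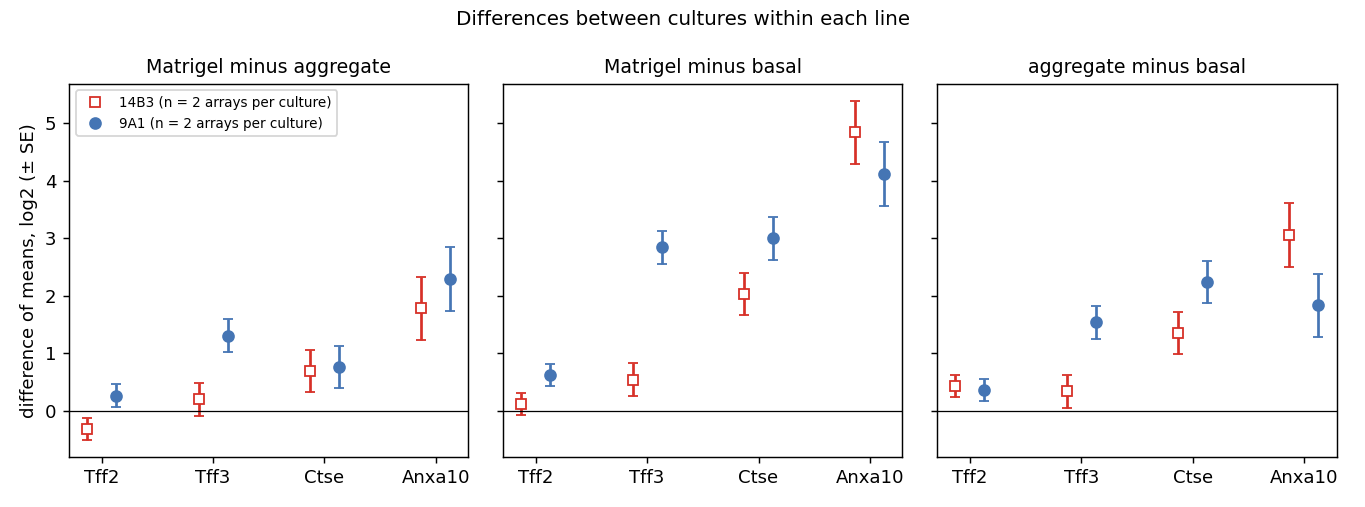
Differences of group means on the log2 scale (y axis) for each member (x axis) in 14B3 (open squares) and 9A1 (filled circles), with 2 arrays per group; bars are ± SE from the fit, and the 3 panels share arrays. Anxa10 reaches 4.84 in 14B3 and 4.11 in 9A1 for Matrigel minus basal, and Tff3 has 0.54 in 14B3 against 2.84 in 9A1.

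A contrast that does not use the difference between Matrigel and aggregates is their mean against basal culture, and it was tested over all genes. The members were chosen with earlier results of these data known, so their p-values may not be independent of that choice. Genes with a Benjamini-Hochberg adjusted p below 0.05 are said to have risen or fallen. All 4 members rose over both lines, where 19.9% of all genes rose and 22% fell, 41.9% in either direction. Anxa10 rose by 3.46 ± 0.34 (adjusted p = 5.57e-06), 11-fold. Ctse rose by 2.15 ± 0.22 (adjusted p = 9.18e-06), 4.44-fold, but by 0.93 (adjusted p = 0.000194) when its probe sets were averaged. All of its 8 Matrigel and aggregate arrays lay above all 4 basal arrays, as for 11.1% of genes. Tff3 rose by 1.31 ± 0.18 (adjusted p = 6.92e-05), with its 8 arrays also above the 4 basal ones. Tff2 rose by 0.38 ± 0.12 (adjusted p = 0.0201), but its adjusted p was 0.0741 without basal_9A1 replicate 1 and 0.104 without basal_14B3 replicate 1 (SE, 8 against 4 arrays throughout).

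Within 14B3, Anxa10 (3.95 ± 0.48, adjusted p = 7.53e-05) and Ctse (1.69 ± 0.32, adjusted p = 0.00159, and 0.73 with its probe sets averaged) rose, 2 of 4 where 14.4% of all genes rose, 16% fell and 30.3% changed in either direction. Tff3 was at 0.43 (95% interval -0.11 to 0.98, adjusted p = 0.244, but 0.0458 when 14B3 arrays were fitted alone) and Tff2 at 0.28 (-0.09 to 0.64, adjusted p = 0.278). Within 9A1 all 4 rose, where 15.3% of genes rose and 32.4% changed in either direction: Anxa10 by 2.97 ± 0.48 (adjusted p = 0.000493), Ctse by 2.61 ± 0.32 (adjusted p = 5.88e-05, and 1.13 with its probe sets averaged), Tff3 by 2.19 ± 0.25 (adjusted p = 3.53e-05) and Tff2 by 0.49 ± 0.17 (adjusted p = 0.0411). The Tff2 call in 9A1 ended without any of 7 single arrays, with adjusted p up to 0.222. The difference between lines in this response was tested directly, and 0.75% of all genes differed, 0.436% with the lower response in 14B3. Tff3 responded less in 14B3 than in 9A1, by -1.75 ± 0.35 (adjusted p = 0.0483), and with the replicate number as a block the call ended (adjusted p = 0.0515). For Anxa10 (0.98, 95% interval -0.51 to 2.46, adjusted p = 1), Ctse (-0.93, -1.91 to 0.06, adjusted p = 0.787) and Tff2 (-0.22, -0.73 to 0.30, adjusted p = 1) no difference between lines was shown.

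The lines were also compared over all cultures, a contrast in which 6.01% of all genes passed, 2.57% higher and 3.45% lower in 14B3. Tff3 was lower in 14B3 than in 9A1, by -1.05 ± 0.17 (SE, 6 against 6 arrays, adjusted p = 0.00247), and remained past the threshold with the replicate block (adjusted p = 0.00369). Anxa10 was at 1.02 ± 0.32 (adjusted p = 0.0958, but 0.0145 without aggregate_9A1 replicate 1), Ctse at 0.10 (95% interval -0.36 to 0.57, adjusted p = 0.89) and Tff2 at 0.05 (-0.19 to 0.29, adjusted p = 0.9). In basal culture alone none of the 4 passed, where 1.9% of genes did by limma (236 genes). There Ctse was at 0.72 (-0.09 to 1.52), Anxa10 at 0.37 (-0.84 to 1.58), Tff2 at 0.19 (-0.23 to 0.62) and Tff3 at 0.12 (-0.51 to 0.74). The unadjusted p was 0.0752 for Ctse and at least 0.335 for the others, so 0 of 4 had an unadjusted p below 0.05.

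Mesenchymal genes were read as markers of another cell type. Of 8 mesenchymal genes, 3 were higher in 9A1 cells in Matrigel than in 9A1 aggregates, where 9.37% of all genes were. In 14B3 by limma 0 were higher and 0 lower, also at an unadjusted p below 0.05. The 3 in 9A1 were Acta2 (2.17), Col3a1 (1.83) and Col1a1 (1.14). There Pdgfrb was at 0.35, Col1a2 at -0.04, Des at -0.06, Dcn at -0.16 and Lum at -0.27, and none of these passed. The summed intensity of the 8, a linear sum in which the brightest genes weigh most, was 1353 and 1525 in 14B3 cells in Matrigel and 4039 and 2867 in 9A1 cells in Matrigel, against 1371 to 1650 on the other 8 arrays. Acta2, of smooth muscle actin, read 8.82 and 8.84 in 14B3 cells in Matrigel and 11.17 and 10.62 in 9A1 cells in Matrigel, and the collagen gene Col1a1 7.39 and 7.67 in 14B3 and 9.35 and 8.29 in 9A1. Tff3 was higher in Matrigel_9A1 replicate 2 and these genes in replicate 1, and their part in the Tff3 values was not tested. Without Matrigel_9A1 replicate 1, Matrigel minus aggregate for Tff3 in 9A1 was 1.70.

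Other stomach genes were read from a list of 46, of which 41 were measured. In Matrigel against aggregates over both lines 6 were higher and 2 lower, where 13.9% and 12.7% of all genes were (26.7% in either direction), and the median of the list was -0.14 where that of all genes was -0.10. Its share of higher genes was thus near the background. The 6 higher genes were Tff1, Gkn1, Gkn2, Foxa1, Foxa2 and Foxq1, and the 2 lower ones Pigr and Elf3. Foxa1, Foxa2 and Foxq1 fell against basal culture, as given below. The 2 lower genes were 8 with the replicate block. In 14B3 7 were higher and 1 lower, where 7.15% and 5.86% of all genes were (13% in either direction), and in 9A1 5 were higher and 2 lower, where 9.37% and 6.27% were (15.6% in either direction). The 7 in 14B3 were 2 without Matrigel_14B3 replicate 1, and the 5 in 9A1 were 2 without aggregate_9A1 replicate 2 or Matrigel_9A1 replicate 2. The calls over all genes also depended on single arrays: 1612 genes in 14B3 became 783 without Matrigel_14B3 replicate 1 and 824 without aggregate_14B3 replicate 2, and 1938 in 9A1 became 908 without aggregate_9A1 replicate 2 and 925 without Matrigel_9A1 replicate 1.

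Of the listed genes of surface and mucous cells, only Tff1, Gkn1 and Gkn2, which encode secreted proteins, passed as higher in Matrigel over both lines. Pigr of the same part of the list passed as lower (-1.30). None of the others passed, with positive values such as Sult1c2 (0.57) and Dmbt1 (0.52) and negative ones such as Psca (-0.46) and Capn8 (-0.25). Tff1, the trefoil factor of surface mucous cells, read 12.11 and 11.96 in 14B3 cells in Matrigel, against 11.24 and 11.64 in 14B3 aggregates, and 13.03 and 13.21 in 9A1 cells in Matrigel, against 11.96 and 11.77 in 9A1 aggregates. Its arrays of Matrigel and aggregate culture were apart in both lines, and over both lines it was 0.92 ± 0.123 higher (adjusted p = 0.000221). Gkn2, which encodes gastrokine 2, a partner of TFF1 in stomach mucus, read 10.29 and 9.56 in 14B3 cells in Matrigel, against 8.55 and 8.55 in 14B3 aggregates, and 10.18 and 11.12 in 9A1 cells in Matrigel, against 10.02 and 9.65 in 9A1 aggregates. It was 1.10 ± 0.201 higher over both lines (adjusted p = 0.0018). Its relative Gkn1 was 0.73 ± 0.108 higher (adjusted p = 0.00045), with all values of its main probe set, which can bind similar transcripts, within the background range. The second Gkn1 probe set differed by 1.20 in 14B3 and 0.72 in 9A1.

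**Figure D3:**
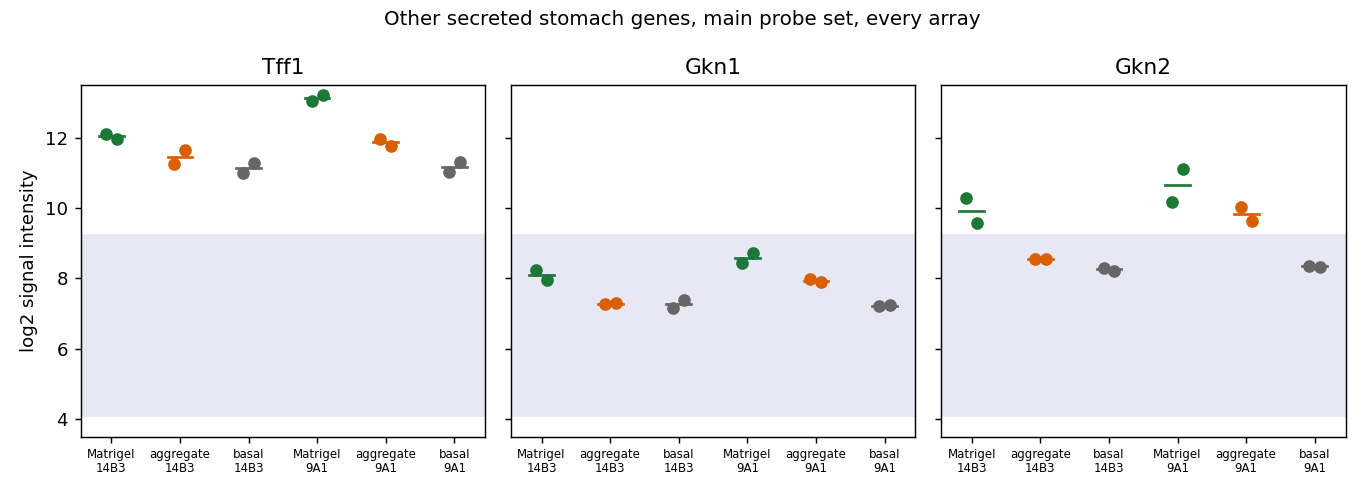
Log2 signal intensity (y axis) of Tff1, Gkn1 and Gkn2 on every array, by culture and line (x axis); points are arrays, lines group means, and the band the range of the background probe sets. Tff1 is highest in 9A1 cells in Matrigel (13.03 and 13.21), and Gkn2 reads 10.29 and 9.56 in 14B3 cells in Matrigel against 8.55 and 8.55 in 14B3 aggregates.

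The windows around the starts of Gkn1 (chr6:87350866-87351165, minus strand) and Gkn2 (chr6:87373115-87373414, plus strand) are set beside that of Anxa10 because these genes were also higher in Matrigel when the lines were averaged. Both are from RefSeq (GRCm38.p6), 5′ to 3′, with the same motifs in capitals and, in addition, AGATAA, the core that GATA factors bind. The marked motifs do not overlap each other.
Gkn1: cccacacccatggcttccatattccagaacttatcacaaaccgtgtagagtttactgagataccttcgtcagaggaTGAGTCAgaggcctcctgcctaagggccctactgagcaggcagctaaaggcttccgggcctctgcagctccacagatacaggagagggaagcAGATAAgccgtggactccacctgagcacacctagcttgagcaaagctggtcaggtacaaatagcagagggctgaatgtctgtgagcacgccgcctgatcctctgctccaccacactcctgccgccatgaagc
Gkn2: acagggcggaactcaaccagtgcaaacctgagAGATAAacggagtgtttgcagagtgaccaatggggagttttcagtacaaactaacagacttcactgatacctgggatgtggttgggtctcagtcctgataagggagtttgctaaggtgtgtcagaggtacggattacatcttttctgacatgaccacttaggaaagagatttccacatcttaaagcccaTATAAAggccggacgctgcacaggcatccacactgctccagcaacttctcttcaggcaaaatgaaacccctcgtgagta
The AP-1 core stands at -174 from the start of Gkn1. The letters AGATAA stand at -82 in Gkn1 and at -218 in Gkn2, and 11.2% of all windows hold it. The letters TATAAA stand at -29 in Gkn2.

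Genes that define other cell types of the stomach were read beside the members. Sox2, a transcription factor of the foregut and stomach, read 4.26 to 4.48 over all 12 arrays. Pgc, the pepsinogen C gene of chief cells, read 7.52 to 8.01, and Atp4b, of the proton pump of parietal cells, 8.27 to 9.24. Neither Pgc (-0.25, adjusted p = 0.0797) nor Atp4b (-0.31, adjusted p = 0.199) nor Sox2 (-0.04, adjusted p = 0.732) passed in Matrigel against aggregates. Muc5ac, the mucin of surface cells, was at 0.31 over both lines (adjusted p = 0.1), higher in 14B3 (0.77 ± 0.183, adjusted p = 0.0168) and at -0.16 in 9A1 (adjusted p = 0.565). The pepsinogen gene Pga5, named after its values were seen, was higher in 14B3 (1.10 ± 0.266, adjusted p = 0.0185) and at -0.27 in 9A1 (adjusted p = 0.503). The difference between lines was not tested for Muc5ac or Pga5. Of the 41 genes, 25 were at no array above the background range. Tff2, Gkn1, Pgc and Sox2 stayed within that range, whereas Anxa10, 1 probe set of Ctse, Tff1 and Gkn2 exceeded it, as did Pga5 on 1 Matrigel array of 14B3 (9.41).

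Transcription factors of the list moved both ways. The forkhead factors of foregut endoderm Foxa1 (1.77 ± 0.176, adjusted p = 3.08e-05) and Foxa2 (1.06 ± 0.231, adjusted p = 0.00523) and the gastric mucin regulator Foxq1 (0.99 ± 0.164, adjusted p = 0.000892) exceeded their aggregate levels in Matrigel. Elf3, an epithelial factor, was lower over both lines (-0.44 ± 0.119, adjusted p = 0.017), at -0.71 in 9A1 (adjusted p = 0.0141) and -0.18 in 14B3 (adjusted p = 0.542). In the mean of Matrigel and aggregates against basal culture, Foxa1, Foxa2 and Foxq1 fell (-0.89, -0.98 and -0.69, adjusted p at most 0.00173). Their levels in Matrigel were closer to basal culture than those in aggregates. Foxa1 averaged 10.72, 8.96 and 10.52 in 14B3 cells in Matrigel, aggregate and basal culture and 9.85, 8.07 and 10.07 in 9A1 cells. Foxq1 averaged 10.19, 9.08 and 10.41 in 14B3 and 9.67, 8.80 and 9.83 in 9A1. Foxa2 averaged 10.42, 9.42 and 10.74 in 14B3 and 10.38, 9.27 and 10.95 in 9A1. Gata4, a factor of foregut endoderm, rose by 0.99 in that mean (adjusted p = 1.56e-05) and was at -0.09 in Matrigel against aggregates (adjusted p = 0.607). Pigr, the receptor that carries antibodies across epithelia and no transcription factor, was lower in Matrigel over both lines (-1.30 ± 0.232, adjusted p = 0.00149). It was at -1.83 in 14B3 (adjusted p = 0.00383) and -0.78 in 9A1 (adjusted p = 0.141). Against basal culture, both Pigr (1.93, adjusted p = 9.05e-06) and Elf3 (1.835, adjusted p = 5.54e-08) rose in the mean of Matrigel and aggregates. Muc6, on the list of genes to be named whatever their values, was not analysed here.

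In the mean of Matrigel and aggregates against basal culture over both lines, 19 of 23 measured intestine genes rose and 1 fell, with a list median of 1.75. Of 12 hepatocyte genes 11 rose and 0 fell, with a median of 1.94. Of all genes, 19.9% rose and 22% fell there. Many intestine genes were lower in Matrigel than in aggregates when the lines were averaged. Of 23 measured, 14 were lower with Matrigel, where 12.7% of all genes were, with a list median of -0.63. Anpep, the brush border aminopeptidase N gene, was at -2.88 ± 0.217, the lactase gene Lct at -2.43 ± 0.265 and Guca2a, of the gut hormone guanylin, at -1.53 ± 0.135. Guca2a was at -0.70 in 14B3 and -2.37 in 9A1. Cdx2, the intestinal master transcription factor, was lower over both lines (-0.70 ± 0.155, adjusted p = 0.0059). It was at -0.57 in 14B3 (adjusted p = 0.125) and -0.83 in 9A1 (adjusted p = 0.0233), and it rose against basal culture (0.42, adjusted p = 0.0242). In 14B3 alone 7 intestine genes were lower and 2 higher, where 5.86% and 7.15% of all genes were. In 9A1 alone 8 were lower and 0 higher by limma, where 6.27% and 9.37% of all genes were, with 16 lower and 0 higher at an unadjusted p below 0.05. The 2, named after their values were seen, were the mucin gene Muc3 (1.75 ± 0.319, adjusted p = 0.00425, against -0.88 in 9A1) and Clca1 of goblet cells (1.64 ± 0.258, adjusted p = 0.00181, against -1.47 in 9A1, where it was lower). Of 12 hepatocyte genes 6 were lower in Matrigel than in aggregates over both lines, among them the urea cycle genes Otc (-2.37) and Cps1 (-1.60) and Ttr (-1.31). Of 9 bile duct genes 2 were higher over both lines, Krt7 (1.48) and the water channel gene Aqp1 (0.75). Aqp1 was at 1.54 in 14B3 but -0.04 in 9A1, and Krt7 at 1.34 and 1.63. In the mean of Matrigel and aggregates against basal culture, 4 of the 9 rose and 2 fell. Krt7 was among those that fell (-1.55, adjusted p = 0.000332), and its Matrigel level lay between those of basal culture and aggregates in both lines. Of 7 haematopoietic genes Cd68 was higher (0.72) and Csf1r lower (-0.88) over both lines. All Cd68 values lay within the background range, and it was at 0.98 in 14B3 (adjusted p = 0.00283) and 0.46 in 9A1 (adjusted p = 0.0906). Csf1r was at -0.62 in 14B3 (adjusted p = 0.017) and -1.15 in 9A1 (adjusted p = 0.000432). No test set 1 list against another.

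**Figure D4:**
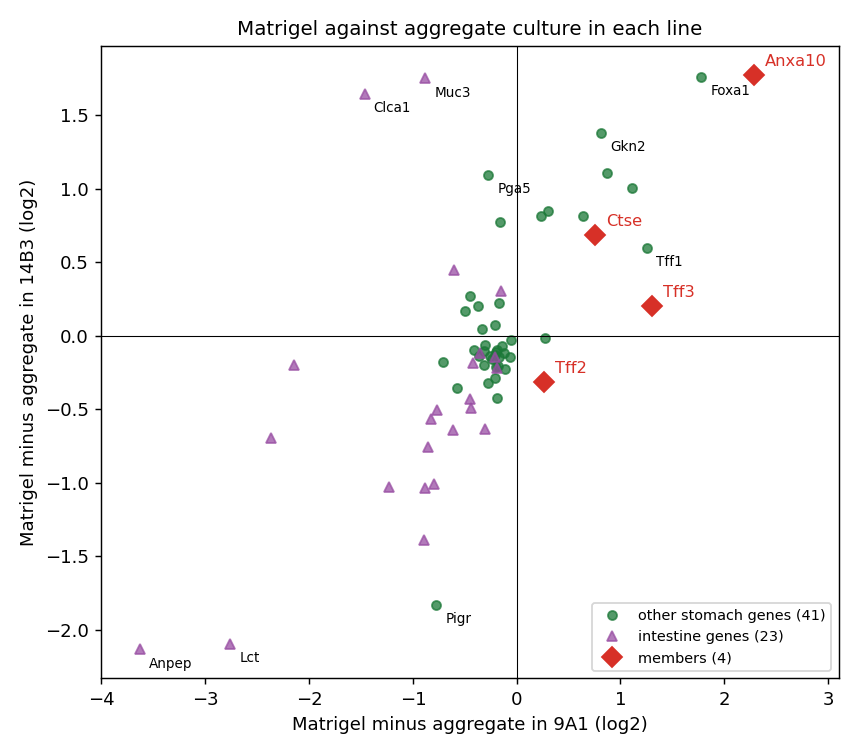
Matrigel minus aggregate on the log2 scale in 9A1 (x axis) against 14B3 (y axis), for the 4 members (diamonds), 41 other stomach genes (circles) and 23 intestine genes (triangles), 1 point per gene from 2 against 2 arrays in each line. Anxa10 lies at 1.78 in 14B3 and 2.28 in 9A1 and Ctse at 0.69 and 0.76, while Anpep and Lct lie lower than -2 in both lines.

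Relatives of the members were read as well. Tff3, Tff2 and Tff1 follow each other on mouse chromosome 17 in the RefSeq table (GRCm38.p6), with Abcg1 and Tmprss3 as the flanking protein-coding genes. Tff1 and Tff3 followed similar courses over the arrays (r = 0.922, n = 12 arrays), Tff1 and Tff2 less so (r = 0.597). Group means ran from 8.48 to 8.72 for Abcg1 and from 7.17 to 7.61 for Tmprss3. Among 24 measured annexins, cathepsins and Tff1, with Matrigel against aggregates 8 were higher and 2 lower, where 13.9% and 12.7% of all genes were. The annexin genes Anxa1 (2.83 ± 0.167) and Anxa3 (2.59 ± 0.301) had the largest differences among those named. Both differ from Anxa10 in basal culture: Anxa1 averaged 11.54, 9.19 and 12.05 in 14B3 cells in Matrigel, aggregate and basal culture, whereas Anxa10 averaged 12.61, 10.83 and 7.77 there.

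Likeness to each member was measured by Pearson's r over the 12 arrays, which share lines and cultures, among about 4290 genes with a range of at least 1 log2 unit, and is given as a description. Genes most like Anxa10 were Mogs (0.944), Car2 (0.932), Rflnb (0.929), Clk1 (0.925) and Pkdcc (0.916). Those most like Ctse were Sptssb (0.976), Car2 (0.975), Gch1 (0.948), Cidec (0.939) and Grn (0.939). Car2, which encodes carbonic anhydrase 2, thus stood among the nearest genes of both, with group means of 12.54, 11.43 and 9.85 in 14B3 cells in Matrigel, aggregate and basal culture and 12.61, 11.52 and 9.21 in 9A1 cells. Tff3 was followed most closely by Nrep (0.933), Crp (0.932), Adamts1 (0.931), Ms4a6b (0.925) and Fbp1 (0.924). Tff2, whose own values span little, had Mst1r (0.851), Cish (0.832), Mea1 (0.822), Ano10 (0.819) and Glmp (0.819). Among the members themselves, Ctse and Anxa10 were most alike (r = 0.887) and Tff3 and Anxa10 least (r = 0.472).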

How the data were processed

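The authors deposited one intensity for each probe set and array, and the submitters' processing notes name RMA and R 2.3.1. Values run from 14.4 to 27318, a linear scale, so log2 was taken. Probe sets were named by GEO's platform annotation, with symbols updated by gene ID for 20351 of the 20380 with 1 symbol; 691 with several, 1555 with none and 64 controls were left out of gene tests. Where a gene had several probe sets, the one with the highest mean stood for it, and dim genes were kept. limma 3.58.1 in R 4.3.3 (lmFit and eBayes) fitted 6 group means with 6 residual degrees of freedom. Tests were two-sided and adjusted by Benjamini-Hochberg over 12393 genes at 0.05; the code was tested on simulated data. P-values measure the spread between these arrays, which may be technical.

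Members and lists were chosen with earlier results of these data known. Named genes were the members, 10 genes fixed by name, up to 10 called stomach genes and up to 3 of each other list by size of change in Matrigel against aggregates, and 5 most alike per member. Differences between replicates correlated in all 15 pairs of groups (r from 0.10 to 0.64), so replicate numbers may pair the samples. The main fit did not use this pairing, and its SEs and p-values ignore it. The replicate number entered as a block within each line only in an alternative fit. Alternatives were single arrays left out, the block, scalings, a floor of 64, other probe set rules, dim genes left out, array weights, a variance trend and single lines. Figures used Python 3.11.15 and matplotlib 3.10.9.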

Additional observations from a re-analysis of the deposited data

Results flagged for a closer look

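The response of Tff3 to Matrigel and aggregate culture differed between the lines: the mean of both cultures minus basal was 0.43 in 14B3 and 2.19 in 9A1, a difference of -1.75 on the log2 scale (adjusted p = 0.0483). The 4 differentiated arrays read 9.63 to 11.79 in 9A1 and 8.86 to 9.27 in 14B3. How many of all genes were separated in this way was not counted. The adjusted p ranged from 0.0106 to 0.285 when single arrays were left out.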

How the results depend on the processing

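The rises of Anxa10, Ctse and Tff3 against basal culture over both lines, and those of Anxa10 and Ctse within each line, kept direction and threshold under every alternative run. Leaving out single arrays gave 0.32 to 0.45 for Tff2 over both lines, 0.36 to 0.62 for Tff2 in 9A1, 0.72 to 1.32 for Anxa10 between lines and -1.98 to -1.53 for the Tff3 line difference in response. That Tff3 call was lost in 16 of 22 alternatives: it stayed at -1.75 with the replicate block (adjusted p = 0.0515), the floor of 64 (0.257), the mean of probe sets (0.0571), all probe sets (0.0889) and genes above the median (0.0579), and was -1.73 with quantile normalization and -1.92 without both first Matrigel replicates, an alternative chosen after seeing the data, which gave 0.46 for Tff2 over both lines. Tff2 in 9A1 (0.49) lost its call with the floor, and Tff3 in 14B3 (0.43) gained one with 14B3 alone. The cause was not tested. The block changed no other call of a member.

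Between lines over cultures 745 genes became 494 to 747 without single arrays, 1119 with the replicate block, 1132 for all probe sets, 479 above the median and 447 without both first Matrigel replicates. In basal culture 236 became 64 to 233, 358 with the block, 109 with the floor and 513 with array weights. Against basal culture all probe sets gave 8965 over both lines, 6791 in 9A1 and 6312 in 14B3, and single arrays 4327 to 5231, 2464 to 4085 (lowest without basal_9A1 replicate 1) and 2250 to 3792 (lowest without basal_14B3 replicate 1). The line difference in response (93) became 18 to 113, 163 with the block, 28 with the floor and 41 above the median. Stomach genes lower in Matrigel over both lines (2) were 1 to 5 without single arrays, 8 with the block, 5 re-centred, 4 with quantiles, the floor or probe set means and 1 above the median. In 9A1 the 5 higher became 2 to 6, and 3 with the floor, and the 2 lower became 0 to 2, 5 with the block and 1 without both first Matrigel replicates. In 14B3 the 7 higher became 2 to 8, and 4 with the floor, above the median or without both first Matrigel replicates, and the 1 lower stayed at 1 without single arrays and became 2 with the block and 0 above the median. Over all genes, Matrigel against aggregates gave 3307 calls over both lines, 1612 in 14B3 and 1938 in 9A1. All probe sets gave 5638, 2643 and 3270 in that order, leaving out both first Matrigel replicates 2011, 748 and 939, and array weights 997 in 14B3.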
